A study of Mus musculus with 31 samples.

Results

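From a mouse brain RNA sequencing series, 20 libraries were compared, 10 with a high and 10 with a low level of Cbln3 RNA, taken from 31 libraries in all. The libraries were ranked by the Cbln3 count per 1000000 counts (CPM) of the library total without mitochondrially encoded genes. Within the 13 control libraries the 4 highest and the 4 lowest were taken, and within the 18 deltamethrin libraries the 6 highest and the 6 lowest. The 11 libraries between them, 5 control and 6 deltamethrin, are called middle. The high and low libraries were therefore chosen by a measured value and are not groups of the study. The difference in Cbln3 between high and low libraries is given as a description with no test, and the gene comparisons concern the other genes.

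The study asked how exposure to deltamethrin during development affects transcription and protein activity in the mouse brain. Deltamethrin is an insecticide of the pyrethroid class, whose targets are the sodium channels of nerve cells. Total RNA came from homogenised hemibrain aliquots, and the labels give each library only its tissue (brain) and its agent (control or deltamethrin). Strain, sex, age, litter, dose and batch are not given in the sources used here. Nothing in the labels says that the libraries came from separate animals, so the p-values measure the spread between these samples, which may be technical.

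Cbln3 (ENSMUSG00000040380, chromosome 14, 55878913 to 55884392 on the minus strand, GRCm38) encodes a secreted protein of the cerebellin family. Granule cells, the small excitatory neurons of the cerebellum, make Cbln3 together with its partner Cbln1. Cerebellins released from the axons of granule cells bind neurexins on the axon side and a receptor on Purkinje cell dendrites, and so join the synapse between both cell types. Gabra6, a GABA-A receptor subunit, is another classical granule cell gene. In homogenised tissue, fewer cells of a type and less RNA per cell cannot be told apart.

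The stretches just before the starts of Cbln3, of Gabra6 and of Galnt15, the gene with the smallest p-value in the comparison, are shown because these genes moved together across the libraries. They are RefSeq sequences of GRCm38.p6, 5′ to 3′ on each gene's strand, without any base inside the RefSeq or GENCODE gene. Capitals mark a 5-base half-site of the nuclear factor I family, TTGGC or its reverse complement GCCAA.
Cbln3: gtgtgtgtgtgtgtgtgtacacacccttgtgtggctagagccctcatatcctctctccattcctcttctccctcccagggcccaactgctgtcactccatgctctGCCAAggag
Gabra6: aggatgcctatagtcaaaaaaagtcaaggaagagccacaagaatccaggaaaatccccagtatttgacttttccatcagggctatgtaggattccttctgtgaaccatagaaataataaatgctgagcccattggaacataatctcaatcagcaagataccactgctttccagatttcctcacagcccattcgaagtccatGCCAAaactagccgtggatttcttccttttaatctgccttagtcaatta
Galnt15: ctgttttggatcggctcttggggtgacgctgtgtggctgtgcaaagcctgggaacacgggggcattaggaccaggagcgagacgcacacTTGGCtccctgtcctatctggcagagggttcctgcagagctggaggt
The Cbln3 stretch is chr14:55884393-55884506 (minus strand, 114 bases), the Gabra6 stretch chr11:42321073-42321322 (minus strand, 250 bases) and the Galnt15 stretch chr14:32028853-32028988 (plus strand, 136 bases). Each held 1 such half-site. A stretch of the same length and place held the half-site before 19.9%, 41.5% and 23.7% of 32851 starts, so such a match is common. The E-box letters CAGATG and CATCTG, bound by factors of the Neurod family, were in none of the stretches and in 6.9%, 14.4% and 8.09% of starts at these lengths.

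Cbln3 spanned a wide range within each agent. In control libraries the low values were 7.74, 26.3, 35.7 and 46.55 CPM (replicates 1, 7, 2 and 3), and the high values were 119.8, 136.2, 140.4 and 141.9 CPM (replicates 8, 4, 9 and 6). The middle control libraries lay between 50.3 and 112.5 CPM. In deltamethrin libraries the low values were 13.8, 47.2, 47.2, 56.5, 62.2 and 73.2 CPM (replicates 14, 8, 5, 4, 9 and 12). The high values were 131.4, 169.5, 172.2, 179.7, 185.2 and 205.5 CPM (replicates 17, 16, 13, 3, 11 and 15), and the middle libraries lay between 84.7 and 124.9 CPM. The limits fell in no wide gap: the lowest high library and the highest middle library had 119.8 and 112.5 CPM in control, and 131.4 and 124.9 CPM in deltamethrin. At the lower limit, 46.55 stood beside 50.3 CPM in control and 73.2 beside 84.7 CPM in deltamethrin. These values rest on 158 to 6315 Cbln3 counts per library, so 2 libraries, control replicate 1 and deltamethrin replicate 14, stood far below the others by more than counting error. The ranking was made within agent and did not use the difference between agents. Over all libraries Cbln3 was at 85.0 ± 47.0 CPM in control (SD, n = 13) and 109.0 ± 55.6 CPM in deltamethrin (SD, n = 18; two-sided permutation test with 100000 resamples, p = 0.217), which does not show that the agents are alike.

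Gabra6 followed Cbln3, and ribosomal RNA of mitochondria ran against it. On the same scale as Cbln3, Gabra6 was lowest in the same 2 libraries, at 9.40 CPM in control replicate 1 and 12.1 CPM in deltamethrin replicate 14, and reached 88.1 CPM in deltamethrin replicate 13. Across the 31 libraries log2 Cbln3 and log2 Gabra6 had a Pearson r of 0.89 (permutation p = 1e-05, the smallest the resamples can give; adjusted over 3 relations 3e-05) and a Spearman rho of 0.84 (permutation p = 1e-05, adjusted 3e-05). Without the 2 libraries farthest from the median of Cbln3, r was 0.74. The share of all counts from mt-Rnr1 and mt-Rnr2, the mitochondrial ribosomal RNAs, had r = -0.58 with log2 Cbln3 (log2 share, permutation p = 0.00051, adjusted 0.000765) and rho = -0.67 (permutation p = 2e-05, adjusted 3e-05). Within control r was -0.67 and within deltamethrin -0.49, and without the 2 farthest libraries it was -0.69. The total count had r = 0.58 (permutation p = 0.00118, adjusted 0.00118) and rho = 0.64 (permutation p = 0.0002, adjusted 0.0002), with r = 0.66 without the 2 farthest libraries. Each pair of values comes from 1 library and shares its depth. The plot of Cbln3, Gabra6 and the mitochondrial share by library shows these patterns.

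**Figure D1:**
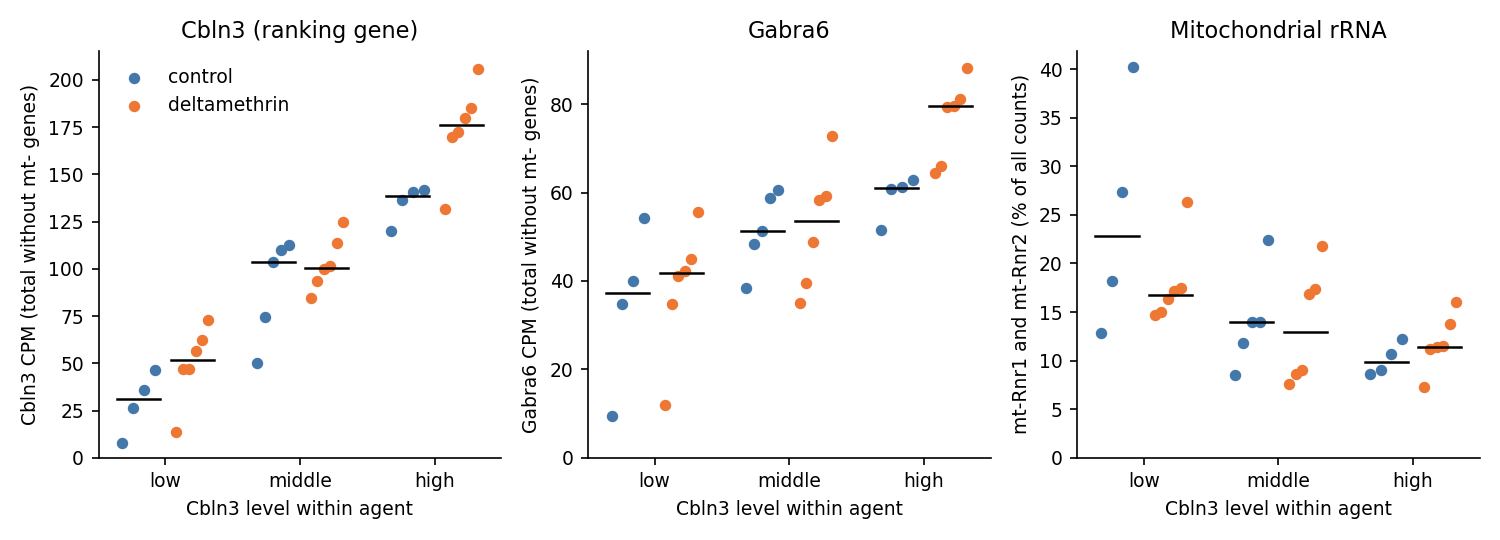
Cbln3 CPM, Gabra6 CPM (both per 1000000 counts of the total without mitochondrially encoded genes) and the percent of all counts from mt-Rnr1 and mt-Rnr2 in each of the 31 libraries, by Cbln3 level within agent. Points are libraries and horizontal lines are medians of each agent; Cbln3 chose the levels, Gabra6 rose across them, and the mitochondrial share reached 40.2% in a low library and at most 16.02% in the high ones.

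The high and low libraries also differed in other library measures. The ranking divided by the library total without mitochondrially encoded genes, so total count and mitochondrial share were not fully apart from it. The mitochondrial ribosomal RNA share was 11.2% ± 2.53 in the high and 20.6% ± 8.40 in the low libraries (SD, n = 10 each; exact permutation test within agent over 64680 arrangements, two-sided, p = 0.000186, adjusted over 4 measures 0.000742). High libraries ranged from 7.32% to 16.02% and low libraries from 12.9% to 40.2%, so the ranges overlapped in part. The total count was 34.55 ± 3.55 in the high and 27.4 ± 4.52 in the low libraries, in units of 1000000 counts (exact adjusted p = 0.00148). The high libraries had 28682 genes with at least 1 count on average and the low ones 27652 (exact adjusted p = 0.00334), and their TMM scaling factors averaged 1.05 and 0.938 (exact adjusted p = 0.00148). Cbln3 level, mitochondrial share and depth thus moved together in these libraries, and the gene results below are given with the mitochondrial share as a covariate beside them.

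Of 20666 genes tested, 3465 (16.8%) were higher and 3373 (16.3%) lower in the high-Cbln3 libraries at an adjusted p under 0.05, by edgeR's quasi-likelihood test with agent as covariate and Benjamini-Hochberg adjustment. With the log2 mitochondrial ribosomal RNA share as a further covariate, 19 genes (0.0919%) were higher and 0 lower, and 1475 genes had an unadjusted p under 0.05. Without library scaling factors the split was 5178 higher and 1473 lower, and the median over all genes tested was 0.15 in place of -0.01 on the log2 scale, so 77.9% of called genes were higher in place of 50.7%. Ranking the libraries by Gabra6 in place of Cbln3 kept 8 of the 10 high and 7 of the 10 low libraries, and gave 76 genes higher (0.366%) and 1 lower (0.00481%) of 20781. Of these 77 genes, 73 were called in the same direction by the Cbln3 ranking. The mitochondrial share had medians of 11.9% and 15.7% in the high and low libraries by Gabra6, against 11.3% and 17.3% by Cbln3. Levels of single genes below are CPM on TMM-scaled library sizes, and a fold change is that of the high over the low libraries.

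The 10 genes with the smallest p-values among the higher ones separated the groups, with every high library above every low library. They were picked by p-value in these same libraries, which favours such a separation. Galnt15, which encodes an enzyme that starts O-linked glycan chains, was at 9.43, 10.4, 10.6 and 11.3 CPM in the high and at 4.47, 4.86, 4.92 and 6.93 CPM in the low control libraries. In the deltamethrin libraries Galnt15 was at 9.41, 9.92, 11.2, 11.8, 13.3 and 13.4 CPM in the high and 4.45, 5.90, 5.94, 6.09, 6.35 and 6.70 CPM in the low ones. Its fold was 1.96 (log2 0.97 ± 0.09 SE, adjusted p = 1.8e-06), with 0.78 with the covariate (adjusted p = 0.00564) and 0.90 by the Gabra6 ranking (adjusted p = 0.000483). Atp2a3, a calcium pump of the endoplasmic reticulum, had a lowest value, median and highest value of 22.2, 26.8 and 43.3 CPM in the high libraries and 7.34, 12.1 and 18.1 CPM in the low ones (log2 1.30 ± 0.13 SE, adjusted p = 3.83e-06). Rgs8, a G protein signalling regulator prominent in Purkinje cells, was at 165.8, 187.3 and 251.1 CPM against 84.8, 100.5 and 151.0 CPM (log2 0.92 ± 0.10 SE, adjusted p = 3.83e-06). The other 7 were the ubiquitin ligase gene Trim62, the kinase gene Cdc42bpg, the methyltransferase gene Icmt, Exph5, the microtubule gene Mtcl1, the ankyrin gene Ank1 and the transcription factor gene Etv1, with log2 fold changes of 0.59 (Etv1) to 1.01 (Cdc42bpg and Ank1). With the covariate, 9 of the 10 still passed, and Ank1 was at 0.71 (adjusted p = 0.0568). Exons of Ank1, Icmt and Rgs8 overlap those of a gene on the opposite strand, and without a stated strand setting their reads cannot be told apart.

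Genes of cerebellar granule cells rose almost as a whole list: 18 of 20 were higher and 0 lower, where 16.8% and 16.3% of all genes tested were. The list's median log2 fold change was 0.78, against -0.01 over all genes tested. Cbln1, the partner of Cbln3, was at 68.4, 78.0 and 100.8 CPM (lowest, median, highest) in the high and at 11.8, 40.5 and 54.7 CPM in the low libraries, a fold of 2.32 (log2 1.21 ± 0.18 SE, adjusted p = 0.000212). The transcription factor genes Zic1 (1.09 ± 0.15 SE) and Zic2 (1.06 ± 0.13 SE) had every high library above every low one, and so did En2 (1.11) and the large cadherin gene Fat2 (1.25 ± 0.25 SE). Neurod1, a transcription factor gene of granule cell maturation, rose by 0.96 ± 0.17 SE with 9 of 10 high libraries above all low ones. Gabra6 rose by 0.92 ± 0.24 SE (adjusted p = 0.00649). The members not passed were Grm4 (0.41, adjusted p = 0.0547) and Gabrd (0.15, adjusted p = 0.123), named after their values were seen. Zic1 and Zic4, and Neurod1 and Cerkl, have overlapping exons and can share reads.

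With the mitochondrial covariate its median was 0.87 and 3 members passed, Zic2 (adjusted p = 0.0487), Zic5 (adjusted p = 0.0229) and Etv1 (adjusted p = 0.0177). By the Gabra6 ranking 12 of the 19 other members were higher, with a median of 0.65. Shares over all genes tested were 0.0919% higher with the covariate and 0.366% higher by the Gabra6 ranking. Within control 8 and within deltamethrin 18 of 20 were higher, with medians of 0.70 and 0.76, where 4.97% and 7.73% of all genes tested were higher. In the 11 middle libraries, which the comparison did not use, all 20 had a positive slope on log2 Cbln3 (median 0.37 per doubling). Of the 20, 9 had an unadjusted p under 0.05, while no gene in these libraries passed the adjustment. Among all 19626 genes in both fits, 10341 had a positive slope and 491 an unadjusted p under 0.05.

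**Figure D2:**
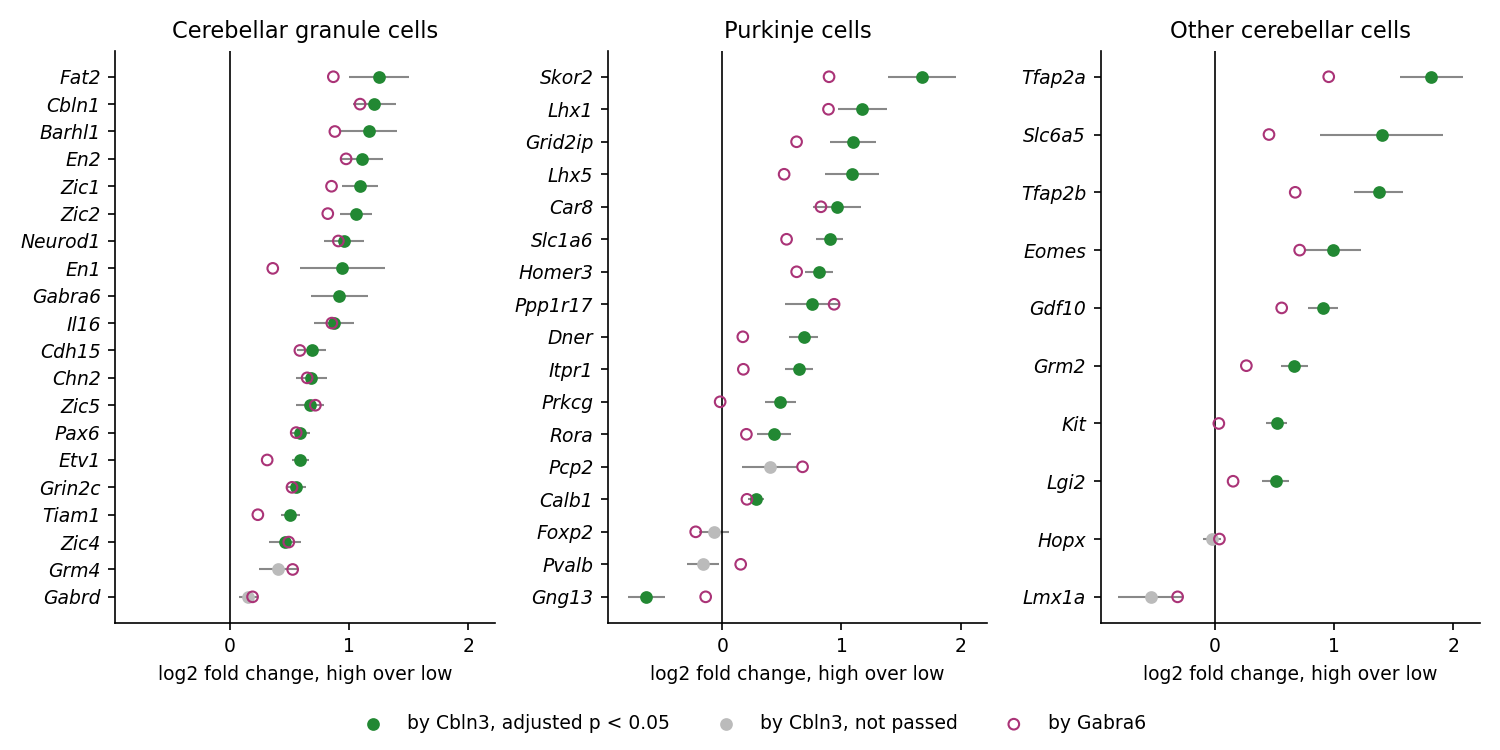
Log2 fold change (high over low libraries) of members of 3 cerebellar gene lists (not every Purkinje list member is drawn), filled by the Cbln3 ranking with SE bars (green where the adjusted p is under 0.05, grey otherwise) and open by the Gabra6 ranking. Most granule cell genes sit near the same value in both rankings, while most Purkinje and other cerebellar genes sit lower by Gabra6.

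Purkinje cell genes, of the neurons that carry the output of the cerebellar cortex, were mostly higher: 15 of 20 rose and 1 fell. Of all genes tested 16.8% were higher and 16.3% lower. The median log2 fold change of the list was 0.56. Slc1a6, a glutamate transporter, had all 10 high libraries above all low ones (0.90 ± 0.11 SE, adjusted p = 3.38e-05). Homer3, a postsynaptic scaffold, rose by 0.81 ± 0.12 SE. Skor2, a transcriptional corepressor, was at 0.92 to 3.32 CPM in the high and 0.04 to 0.91 CPM in the low libraries (log2 1.68 ± 0.29 SE), with no overlap. Gng13, a G protein subunit gene whose exons overlap those of Chtf18, fell by 0.64 on the log2 scale (SE 0.16, adjusted p = 0.00377). Among the members that did not pass were Pcp2 (0.40), Pvalb (-0.16) and Foxp2 (-0.07). With the covariate the list's median was 0.53 and 1 member, Calb1, passed (0.42, adjusted p = 0.0271). By the Gabra6 ranking the median was 0.25 and 2 members passed, Homer3, whose exons overlap those of Ddx49 (0.62, adjusted p = 0.038) and Ppp1r17 (0.94, adjusted p = 0.038). Shares over all genes tested were 0.0919% higher with the covariate and 0.366% higher by the Gabra6 ranking.

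Of 10 genes of interneurons, unipolar brush cells, Bergmann glia and their precursors, 8 rose, where 16.8% of all genes tested were higher. Their median was 0.79. The interneuron transcription factor genes Tfap2a (1.82 ± 0.26 SE) and Tfap2b (1.37 ± 0.21 SE) and the Bergmann glia gene Gdf10 (0.91 ± 0.13 SE) led. Lmx1a (-0.54) and Hopx (-0.02) did not pass. Here the median was 0.34 with the covariate and 0.36 by Gabra6, and no member passed in either.

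Among the cerebellins, the related C1ql genes and their receptors, 3 of 13 rose and 1 fell, where 16.8% of all genes tested were higher and 16.3% lower. Nrxn2, a presynaptic receptor of cerebellins, rose by 0.54 ± 0.11 SE (adjusted p = 0.00108), and Cbln4 by 0.56 ± 0.12 SE (adjusted p = 0.00109). The receptor gene Adgrb3 fell by 0.41 on the log2 scale (adjusted p = 0.0124) but was at 0.05 with the covariate. Cbln2 (0.28) and Nrxn3 (0.07) did not pass. The list's median was 0.24, and 0.05 with the covariate, where no member passed. By the Gabra6 ranking the median was 0.01 and 1 member was higher, where 0.366% of all genes tested were.

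Markers of other brain regions also differed, in both directions, where 16.8% of all genes tested were higher and 16.3% lower. All 23 brainstem genes had counts, but only 14 passed the filter on low counts, in part through the group where they were high. Of these 14, 4 rose (Hoxb6, Hoxb5, Hoxa5 and Glra1), with high-library medians of 0.35 to 0.54 CPM for the Hox genes. That count was between 2, without deltamethrin replicate 11, and 8, without deltamethrin replicate 12, and the list's median of 1.07 was -0.22 with the covariate. Of 12 striatal genes 8 fell and 0 rose, with a median of -0.36 (-0.30 with the covariate and -0.32 by Gabra6, where none passed). Tac1, the substance P precursor, was at 17.1, 23.0 and 31.5 CPM in the high and 28.6, 38.4 and 54.8 CPM in the low libraries, with 9 of 10 high libraries below all low ones (log2 -0.66 ± 0.12 SE, adjusted p = 0.000439). The striatal decrease stood at a median of -0.65 in control, with 8 genes lower, and -0.13 in deltamethrin, with 1 lower, where 5.26% and 8.79% of all genes were lower. In the middle libraries 10 of the 12 had positive slopes.

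For the other regions, counts stand against 16.8% higher and 16.3% lower over all genes tested, and several lie near those shares. Of 15 cortical genes 3 rose (Cux2, Neurod2 and Camk2a), and 7 without control replicate 1. Of 10 olfactory bulb genes 3 rose, Calb2, which cerebellar granule cells also express (1.06 ± 0.17 SE), Barhl2 (1.26 ± 0.21 SE) and Lhx5, which the Purkinje list also holds. All 3 had every high library above every low one, and 5 olfactory bulb genes rose without control replicate 3. The hippocampal list had 2 higher and 2 lower of 10, the thalamic list 3 and 1 of 10, and the hypothalamic list 2 and 1 of 14. Without deltamethrin replicate 12, 5 thalamic and 4 hypothalamic genes were higher. The hypothalamic count was 1 without any one of control replicates 2, 4, 6, 7 and 9 or deltamethrin replicates 3, 4, 8, 14 and 15.

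The counts of cell type lists also stand against 16.8% higher and 16.3% lower over all genes tested, and several lie near those shares. Of 10 astrocyte genes 6 rose, by 0.29 (Aqp4) to 0.67 (Slc6a11). Of 5 blood genes 4 fell, the globin genes Hbb-bs (-0.83 ± 0.17 SE), Hbb-bt, Hba-a1 and Hba-a2, which are near copies of each other and can share reads. The choroid plexus list had 0 higher and 2 lower of 13, the myelin list 1 and 3 of 14, the microglial list 1 and 3 of 10 and the endothelial list 4 and 1 of 10. The choroid plexus count was 0 without any one of control replicates 4, 7, 8 and 9, and 1 without any one of control replicates 2 and 6 and deltamethrin replicates 5 and 11. That list's median was -0.81 in control, with 4 genes lower, and -0.009 in deltamethrin, with 0 lower. Of all genes tested, 5.26% were lower in control and 8.79% in deltamethrin. The microglial count of higher genes was 0 without any one of control replicates 4, 6, 7, 8 and 9 or deltamethrin replicates 3, 4, 5, 8, 9, 11 and 14. The myelin count of higher genes was 3 without control replicate 3 and without deltamethrin replicate 12. The summed level of the choroid plexus list was 258 to 675 CPM in the high and 272 to 1353 CPM in the low libraries, and that of the blood list 399 to 757 and 576 to 1670 CPM. No list had a member at 0 in every library. With the covariate none of these region and cell type genes passed. Their part in the Cbln3 difference was not tested.

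Of 26 voltage-gated and leak potassium channel genes 10 rose, 0 fell and 16 did not pass. The channel counts stand against 16.8% higher and 16.3% lower over all genes tested. Kcnc1, a fast delayed rectifier subunit, was at 138.6, 185.5 and 241.7 CPM in the high and 87.0, 103.5 and 147.4 CPM in the low libraries, with 9 of 10 high libraries above all low ones (log2 0.79 ± 0.10 SE, adjusted p = 4.71e-05). The leak channel gene Kcnk9 rose by 0.49 ± 0.08 SE. Of 12 tested sodium channel genes, the class that deltamethrin acts on, 4 rose, led by Scn8a (0.39 ± 0.10 SE) and the beta subunit gene Scn2b (0.53 ± 0.14 SE). Of 18 ionotropic glutamate receptor genes 6 rose and 1, Grik1, fell (-0.44 ± 0.11 SE). Grin2c, the NMDA receptor subunit of mature granule cells, rose by 0.56 ± 0.08 SE and was also higher by Gabra6 (0.52, adjusted p = 0.00955). Of 16 GABA-A receptor genes Gabrb2 and Gabra6 rose, and Gabra4 and Gabra5 fell. Without deltamethrin replicate 12, and without deltamethrin replicate 17, 4 GABA-A genes rose. With the covariate no channel gene passed. By the Gabra6 ranking the list medians were 0.03 for potassium, -0.006 for sodium, -0.04 for glutamate receptor and -0.04 for GABA-A genes. In that ranking 1 glutamate receptor gene and no potassium, sodium or GABA-A gene was called, where 0.366% of all genes tested were higher. Scn8a was at -0.04 there.

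**Figure D3:**
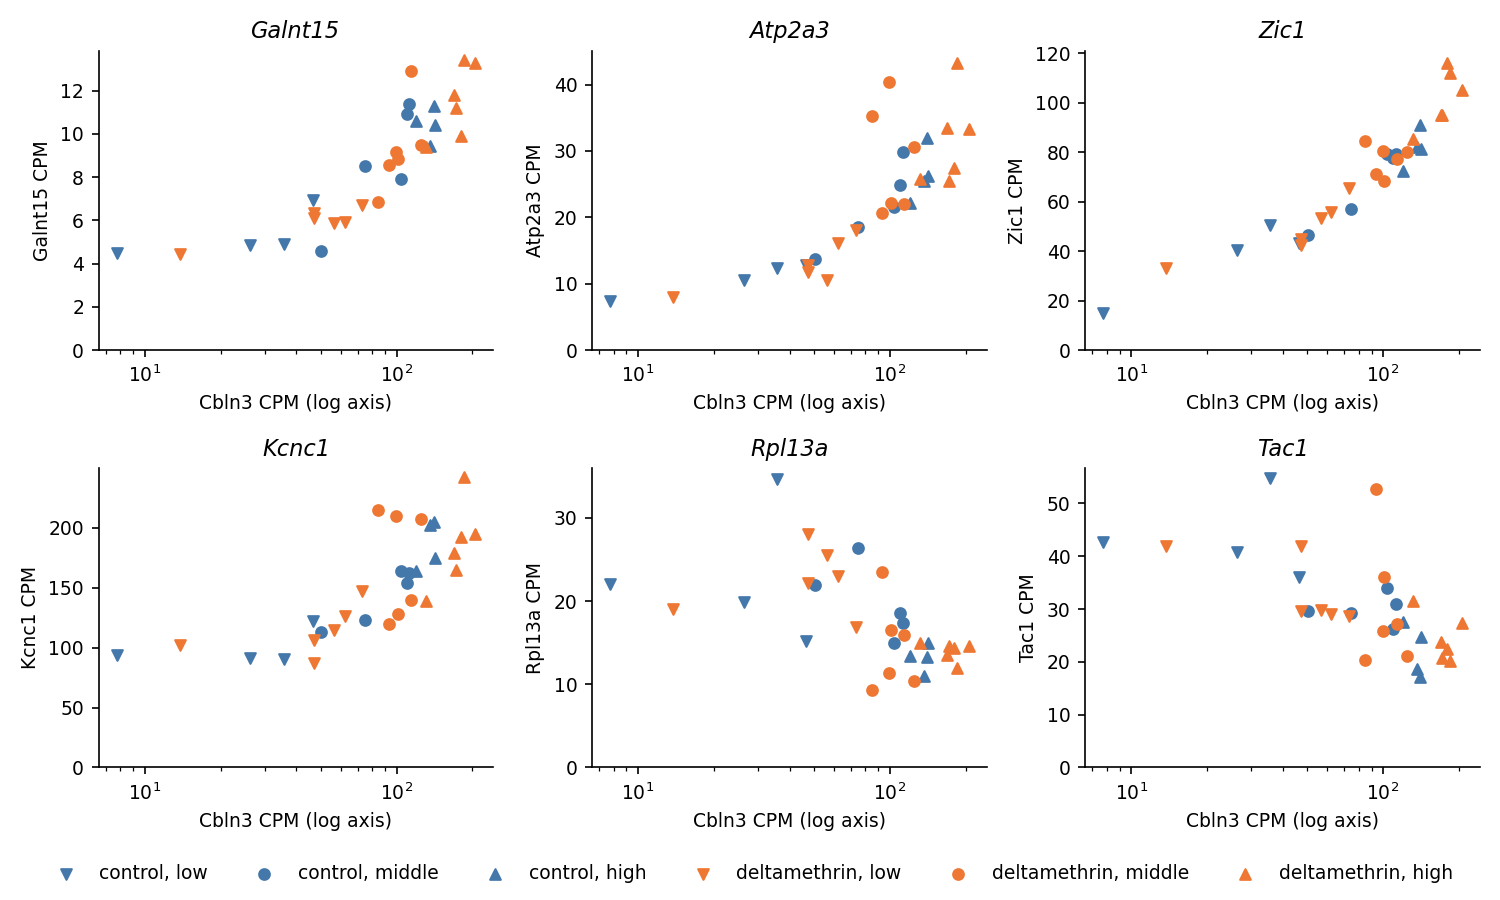
CPM (TMM-scaled) of Galnt15, Atp2a3, Zic1, Kcnc1, Rpl13a and Tac1 against Cbln3 CPM (log axis) in the 31 libraries; colours are agents, and triangles down, circles and triangles up are low, middle and high libraries. The first 4 genes run upwards with Cbln3 and the last 2 downwards, and middle libraries lie in and beyond the range between the groups.

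The genes lower in the high-Cbln3 libraries held many of ribosomes, histones and the respiratory chain, counted below. Among the 10 with the smallest p-values were the histone gene Hist1h2ai, Lrrc10b, the tryptophan-degrading enzyme gene Ido1, the pseudogene Rpl19-ps11, Wdpcp, the ribosomal protein gene Rpl13a, the actin-binding peptide gene Tmsb10, the spliceosomal RNA gene Rnu1a1 and Zswim7. Rpl13a was at 10.96, 13.9 and 14.9 CPM in the high and 15.2, 22.1 and 34.7 CPM in the low libraries, with no overlap (log2 -0.72 ± 0.11 SE, adjusted p = 0.000194). Tmsb10 was at 47.7, 59.6 and 66.0 CPM in the high and 70.5, 84.4 and 129 CPM in the low libraries, again with no overlap (log2 -0.60 ± 0.09 SE, adjusted p = 0.000194). Hist1h2ai, Rnu1a1, Rpl13a and Rpl19-ps11 have near copies in the genome, so their counts depend on how reads of several places were handled. Exons of Wdpcp overlap those of Mdh1 on the opposite strand, and without a stated strand setting their reads cannot be told apart. None of the 10 passed with the covariate or by Gabra6.

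Gene families recognised by their symbols, chosen after values had been seen, showed the same direction. Their counts are of single genes that passed the same threshold, and no family was tested as a set. Among all genes tested 16.8% were higher and 16.3% lower. Of 85 cytosolic ribosomal protein genes 81 were lower and 0 higher, with a median of -0.64. Of 60 histone genes 50 were lower and 0 higher (median -0.60), of 49 genes of NADH dehydrogenase subunits and assembly factors 38 and 0 (-0.44), of 20 ATP synthase genes 15 and 0 (-0.37), and of 80 mitochondrial ribosomal protein genes 49 and 1 (-0.29). Of 42 small nuclear RNA genes 31 were lower, with a median of -1.46. The clustered protocadherin genes, cell surface proteins of neurons, went the other way with 18 of 54 higher and 0 lower (median 0.26). With the covariate the medians were -0.16 for ribosomal proteins, -0.18 for histones, -0.12 for NADH dehydrogenase genes and 0.06 for protocadherins, and no member passed. By the Gabra6 ranking they were -0.28, -0.32, -0.19 and 0.02, again with none passed. Without scaling factors they were -0.44, -0.40, -0.25 and 0.40.

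**Figure D4:**
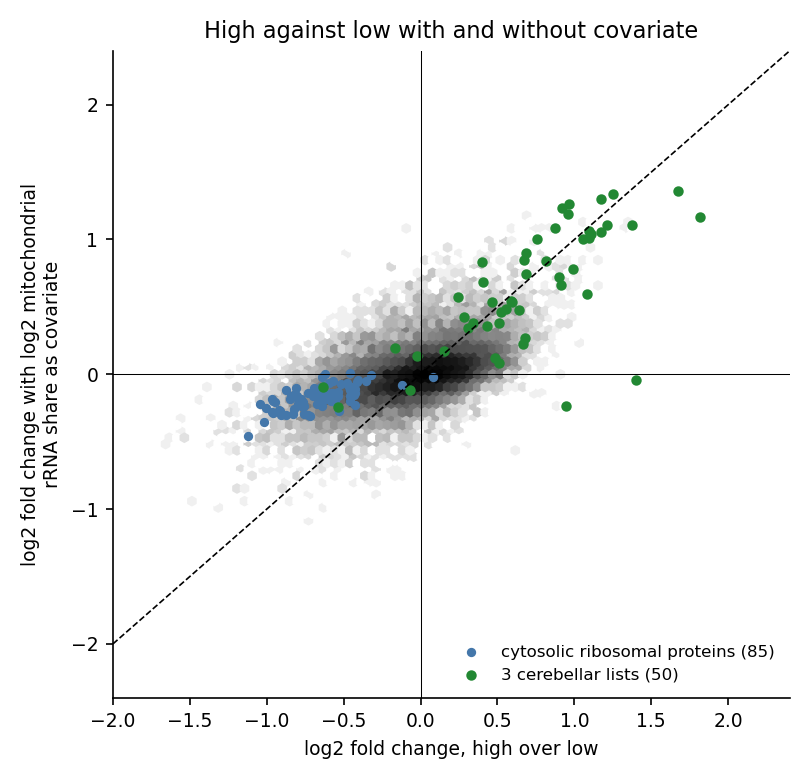
Log2 fold change (high over low libraries) of 20666 genes without (x axis) and with (y axis) the log2 mitochondrial ribosomal RNA share as covariate; grey shading is the number of genes on a log scale, and the dashed line marks equal values. Of the 3 cerebellar lists (green, 50 genes), the granule and Purkinje lists have medians of 0.78 and 0.56 without and 0.87 and 0.53 with the covariate, and the other cerebellar genes 0.79 and 0.34, while the 85 ribosomal protein genes (blue) lie nearer to 0 on the y axis than on the x axis.

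The exon length of a gene, with the exons of all its annotated transcripts merged, went with the direction of the difference. Median exon length was 5802 bases for the higher, 2083.5 bases for the lower and 3544 bases for all genes. The median GC content of the longest transcript was 52.4%, 47.9% and 49.2%. When 15442 protein-coding genes were put in 10 groups of like size by exon length, 2.91% of the shortest group were higher and 43.0% lower, against 35.8% and 7.90% of the longest. The median log2 fold change went from -0.28 in the shortest to 0.13 in the longest group, and from -0.11 to 0.09 with the covariate.

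**Figure D5:**
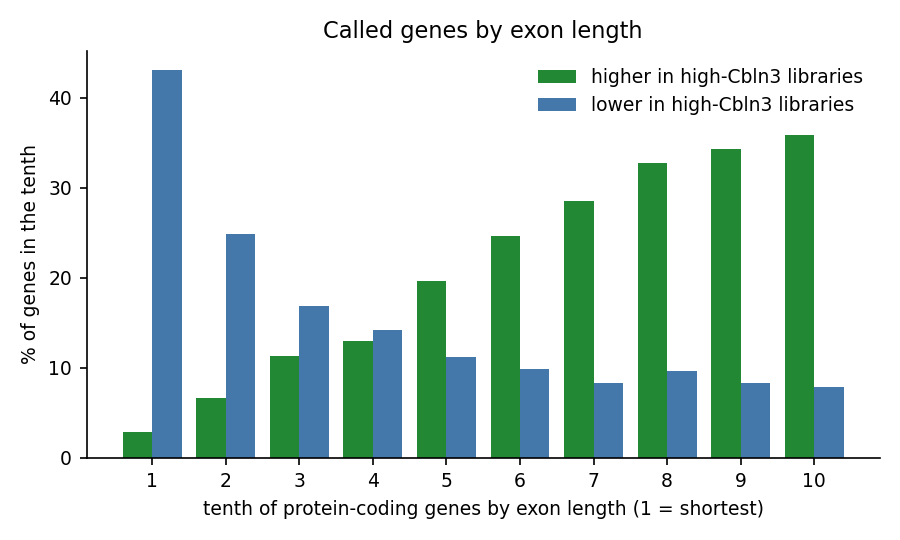
Percent of protein-coding genes higher (green) and lower (blue) in the high-Cbln3 libraries in each of 10 groups by exon length, from the shortest (1) to the longest (10). The share of higher genes goes from 2.91% to 35.8% and that of lower genes from 43.0% to 7.90%.

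The 19 genes that passed with the mitochondrial covariate were all among those called without it, and all were higher. Beside Galnt15, Exph5, Rgs8, Trim62, Cdc42bpg, Atp2a3, Etv1, Icmt, Mtcl1, Zic5, Calb1 and Zic2, they were Cep76, Fam107b, Trmt9b, Inpp5a, Bcl2l15, Zfp385c and Nrep, named after their values were seen. Etv1, Zic2 and Zic5 belong to the granule list and Calb1 to the Purkinje list. Of the 19, 8 were also called by the Gabra6 ranking, among them Galnt15, Cdc42bpg, Zic2, Zic5, Bcl2l15 (1.16, adjusted p = 0.00222) and Nrep (0.60, adjusted p = 0.00316). Bcl2l15 was at 3.63 to 6.49 CPM in the high and 0.72 to 3.71 CPM in the low libraries, with 9 of 10 high libraries above all low ones.

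The difference between high and low libraries was then compared between agents. No gene of 20666 passed the test of the interaction (0% higher, 0% lower; smallest adjusted p = 0.19), while 1804 had an unadjusted p under 0.05 and DESeq2 called 2, Bnc2 and Mndal. The genes with the smallest p-values were the transcription factor genes Bnc2 and Dach1 and the kinase gene Dgkb. Without control replicate 4, edgeR called Bnc2 as well (interaction -1.42, adjusted p = 0.0417). Taken alone, the control libraries gave 955 genes higher and 1009 lower of 19198, and the deltamethrin libraries 1487 and 1692 of 19240.

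The 11 middle libraries gave a further view of the same genes. On log2 Cbln3 across them, 0 of 19668 genes passed (494 with an unadjusted p under 0.05, smallest adjusted p = 0.913; no other tool was run). The sign of the slope matched for 3146 of 3430 genes called higher (91.7%) and 2963 of 3275 called lower (90.5%). Of all 19626 genes in both fits, 10341 had a positive slope. The signs all come from the same 11 libraries, so they are not separate observations, and this fit held no mitochondrial covariate. These libraries ranged from 7.61% to 22.4% in mitochondrial ribosomal RNA share.

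With log2 Cbln3 as a covariate over all 31 libraries, no gene passed the test of deltamethrin against control (0 of 19528, 0% in each direction, smallest adjusted p = 0.342, 684 genes with an unadjusted p under 0.05, DESeq2 0). Per2, a core clock gene, had the smallest p-value, at 20.95 ± 2.10 CPM in deltamethrin (SD, n = 18) and 26.7 ± 4.71 CPM in control (SD, n = 13; log2 -0.36 ± 0.07 SE). It was called when control replicate 5 was left out (adjusted p = 0.0268). Ciart (-0.40 ± 0.09 SE) and Ighm (-0.33 ± 0.08 SE) followed and were not called. Without the covariate the count was also 0, with 853 unadjusted and Per2 at -0.35. Gabra6 was at 44.9 ± 15.8 CPM in deltamethrin and 40.1 ± 12.7 CPM in control, and -0.09 ± 0.11 SE on the log2 scale with the covariate.

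Clock genes, which the study's title names, were tested in the Cbln3 comparison as well. Of 18 clock genes 7 rose and 1, Npas2, fell, where 16.8% of all genes tested were higher and 16.3% lower. The list's median was 0.15, and Nr1d1 (0.45 ± 0.10 SE) had the smallest p-value. Exons of Nr1d1 overlap those of Thra on the opposite strand, and without a stated strand setting their reads cannot be told apart. With the covariate the list's median was -0.00 and none passed. In the middle libraries 9 of the 18 had positive slopes, and Nr1d1 was at -0.02. Of 16 immediate early genes none passed by edgeR or DESeq2, 1 had an unadjusted p under 0.05, and the list's median was -0.16, or -0.77 with the covariate. Without deltamethrin replicate 5, edgeR called Egr3 higher (0.57, adjusted p = 0.0162).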

How the data were processed

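The authors deposited raw counts per gene for 31 libraries, and per the submitters' processing notes Trimmomatic, HISAT2, SAMtools and MultiQC were used with the build GRCm38. The counting tool, annotation and strand setting are not given in the sources used here. Of 48795 genes in the table, 48349 IDs (99.1%) matched GENCODE M21, which gave positions and lengths. Column totals were 17570311 to 38680621 counts, and no 2 libraries agreed within sampling noise.

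Cbln3 and Gabra6 CPM used in the ranking are per 1000000 counts of the total without 37 mitochondrially encoded genes. CPM of other genes is on library sizes scaled by TMM over all 31 libraries, while each fit computed its own TMM factors. Genes were tested with edgeR 4.0.16 in R 4.3.3 (filterByExpr with a minimum count of 10 and a minimum total of 15, robust quasi-likelihood F-test, Benjamini-Hochberg adjustment over all tested genes other than Cbln3, threshold 0.05). The SE is the log2 fold change over the square root of F. DESeq2 1.42.0 and limma 3.58.1 were alternatives. The fit was tested on simulated data. Library measures were tested by permutation with NumPy 2.4.6, and SciPy 1.17.1 ranked the values for Spearman rho.

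The genes named are the 10 with the smallest p-values in each direction with a mean of at least 1 CPM and no predicted-gene symbol, up to 4 more with the smallest p-values in each list, and up to 3 each in the interaction and agent tests by the same limits. Any other gene, and every gene family, was picked with its values already in view. The libraries, lists and tests were chosen with earlier results of these data known. Replicate numbers follow deposit order and pair nothing. Some genes are not reported here.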

Additional observations from a re-analysis of the deposited data

Results flagged for a closer look

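In each group of 4 to 6 libraries, 27 values were checked for 1 library standing apart, which made 108 checks, and 9 were flagged by Dixon's ratio. Chance flags about 1 in 20 such groups. In deltamethrin replicate 8, a low-Cbln3 library, the mitochondrial ribosomal RNA share was 26.3% against 14.71% to 17.46% in the other low deltamethrin libraries. Its TMM factor was 0.8433 against 0.9686 to 1.034. Deltamethrin replicate 14 had the lowest Galnt15 level of that group, 4.45 CPM against 5.9 to 6.7 CPM, and also its lowest Cbln3 level. Deltamethrin replicate 12 had 8.14 CPM of Zswim7 against 11.5 to 13.2 CPM.

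Among low control libraries, replicate 3 had 113 CPM of Rgs8 against 88.6 to 90.7 CPM, and replicate 2, the library with the smallest total count, had 4.83 CPM of Hist1h2ai against 2.62 to 2.99 CPM. Among high control libraries, replicate 6 had 61.8 CPM of Lrrc10b against 44.1 to 45.3 CPM. Among high deltamethrin libraries, replicate 17, which had the lowest Cbln3 level of them, had 30.1 CPM of Exph5 against 38.7 to 43.4 CPM and 2.48 CPM of Ido1 against 1.24 to 1.46 CPM.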

How the results depend on the processing

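Counts of genes higher and lower in the high-Cbln3 libraries stayed within 1.5 times of 3465 and 3373 with RLE factors, DESeq2, voom, no filter, no agent term, mitochondrial genes removed and both lowest libraries left out. They became 5178 and 1473 without scaling factors, 19 and 0 with the mitochondrial covariate, 955 and 1009 in control alone, 1487 and 1692 in deltamethrin alone, and 1427 and 2137 with 6 and 6 control and 9 and 9 deltamethrin libraries. They were 76 and 1 ranked by Gabra6, 0 and 0 in the 11 middle libraries and 2045 and 2004 without libraries over 20% mitochondrial ribosomal RNA. The middle libraries, the 20% limit and leaving out both lowest libraries were chosen after seeing the data. Fewer libraries entered several of these fits; otherwise the cause was not tested. Leaving out 1 library at a time gave 2827 to 3734 higher and 2836 to 3584 lower genes, differences of 6.044 to 7.954 in total count (units of 1000000), -10.24 to -7.198 percentage points in mitochondrial share, 804.4 to 1152 in genes detected and 0.08017 to 0.1269 in TMM factor. DESeq2 called 1 gene higher and 1 lower in the interaction. Interaction calls were 0 to 1 (1 without control replicate 4), and agent calls 0 to 1 (1 without control replicate 5).

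Of 2472 single-gene values, 29 changed direction and the cause was not tested. With the mitochondrial covariate these were Adgrb3 0.0532, Hoxb5 -0.1901, Hoxa5 -0.0276, Lamp5 -0.0269, Wfs1 -0.0637, Calml4 0.0567, Kcne2 0.0755, Fa2h -0.0284, Aldh1l1 -0.0007001, Slc6a11 -0.0851, Cx3cr1 -0.0447, Cdh5 -0.0163 and Egr3 -0.2903. In control alone they were Egr2 0.1106 and Npas4 0.0721, and ranked by Gabra6 Wfs1 -0.0744, Scn8a -0.0378 and Egr3 -0.0549. In the middle libraries they were Cux2 -0.1361, Lamp5 -0.3721, Pkp2 0.1288, Gpr6 0.1064, Adora2a 0.1938, Aspa 0.1636, Gabra4 0.0594, Gabra5 0.0092, Nr1d1 -0.0205, Bhlhe40 -0.1399 and Egr3 -0.3034. None of 2370 values with 1 library left out changed direction, and 64 lost their call. No paired analysis was possible because numbers of replicates were given in accession order.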

Other observations

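Khnyn, the neighbour of Cbln3 on the opposite strand (chromosome 14, from 55884947), rose by 0.54 ± 0.08 SE in the high-Cbln3 libraries and was also higher by the Gabra6 ranking. It was chosen after its values were seen. The only gene called lower by the Gabra6 ranking was the chloride channel gene Ano2 (-0.47, adjusted p = 0.04 by edgeR), which was at -0.65 ± 0.12 SE by Cbln3.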
